A study of Mus musculus with 18 samples.

Results

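The p53 family and its classic targets were followed through 10 genes: the family members Trp53, Trp63 and Trp73, the p53 inhibitor Mdm2, and the targets Ccng1, Cdkn1a, Sesn2, Phlda3, Zmat3 and Eda2r. They were picked by gene symbol, and all 10 had a row in each of the 18 libraries, among 46411 genes that did. The libraries held poly(A) RNA of male C57BL/6J mice that lacked Zfp541 (Zfp541-/-, KO) or carried 1 mutant allele (Zfp541+/-, Het). Zfp541 encodes a zinc-finger protein of male germ cells. The groups were spermatocytes at postnatal day 18 (P18) from KO and from Het mice, whole testis at P18 from KO and from Het mice, and whole testis at P14 from KO and from Het mice, with 3 biological replicates in each of the 6 groups. No wild-type group was analysed here, so every KO library was set against Het, and the labels give neither the nature of the mutant allele nor the way in which spermatocytes were isolated.

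p53 is a transcription factor that is kept low by the ubiquitin ligase MDM2 and accumulates after DNA damage, when it switches on genes for cell cycle arrest, repair and apoptosis. Mdm2 is itself such a target, which closes a negative feedback loop. Spermatocytes make DNA double-strand breaks on purpose through SPO11, and in mice p53 and the TA isoform of p63 take part in the arrest of spermatocytes that fail to complete recombination. Much of the control of p53 acts on the protein, which RNA libraries do not show.

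The promoters that hold a consensus p53 half-site are shown first. RefSeq promoters (build GRCm38.p6) were found for 8 of the 10 members, with 10 start sites in all, and not for Trp63 and Zmat3. Each was searched on both strands from 250 bases before to 50 bases after the start for the consensus p53 half-site, a 10-base motif that reads the same on both strands. A half-site was present at 4 of the 10 starts and in 8.36% of 32851 promoters of that length. The 250 bases before the start are written 5′ to 3′ along the gene, with half-sites in capitals. No half-site was found in Sesn2, Phlda3, Eda2r, either Trp73 start or the downstream Cdkn1a start.
Cdkn1a, upstream start, chr17:29090729-29090978, plus strand: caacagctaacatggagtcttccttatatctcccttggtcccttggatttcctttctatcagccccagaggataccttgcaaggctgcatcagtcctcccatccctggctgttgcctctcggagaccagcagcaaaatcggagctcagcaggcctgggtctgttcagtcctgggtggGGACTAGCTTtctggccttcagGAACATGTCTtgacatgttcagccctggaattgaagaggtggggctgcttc
Ccng1, chr11:40755287-40755536, minus strand: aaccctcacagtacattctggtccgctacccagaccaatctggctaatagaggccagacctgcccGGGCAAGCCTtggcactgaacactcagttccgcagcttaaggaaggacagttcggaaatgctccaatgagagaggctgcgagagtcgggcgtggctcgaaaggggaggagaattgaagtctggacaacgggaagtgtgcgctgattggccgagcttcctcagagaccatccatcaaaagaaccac
Mdm2, chr10:117710759-117711008, minus strand: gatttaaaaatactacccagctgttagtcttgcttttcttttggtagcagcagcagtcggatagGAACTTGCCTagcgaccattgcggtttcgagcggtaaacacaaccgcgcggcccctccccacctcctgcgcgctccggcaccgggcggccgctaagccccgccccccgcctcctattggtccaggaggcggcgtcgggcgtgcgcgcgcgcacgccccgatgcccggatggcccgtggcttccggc
Trp53, chr11:69580109-69580358, plus strand: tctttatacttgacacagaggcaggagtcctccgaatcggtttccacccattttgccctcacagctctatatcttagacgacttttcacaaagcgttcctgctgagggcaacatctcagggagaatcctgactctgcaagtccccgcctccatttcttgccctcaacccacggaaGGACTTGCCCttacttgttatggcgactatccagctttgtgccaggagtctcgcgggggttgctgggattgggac
The upstream Cdkn1a start had half-sites beginning at positions -73 and -51 from the start, and together they met the rule for a full site, with at most 13 bases between them, which 0.0731% of promoters met. The stretch of 20 bases from -51 differed from 2 adjoining half-sites at 1 position. In Ccng1 the half-site began at -185, inside a 20-base stretch from -195 that likewise differed from a full site at 1 position. Mdm2 had a half-site at -186 and Trp53 one at -75, with no full site. The known p53 response elements of Mdm2 lie in its first intron, outside this window. The letters describe the sequence and do not show binding. The other members lie at chr4:132492032-132510501 (Sesn2, minus strand), chr1:135766119-135769136 (Phlda3, plus strand), chr3:32334792-32366014 (Zmat3, minus strand), chr16:25683763-25892102 (Trp63, plus strand), chr4:154056253-154140208 (Trp73, minus strand) and chrX:97333840-97377216 (Eda2r, minus strand) in GRCm38, and all 10 are protein-coding.

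The deposited values were RPKM (reads per kilobase of gene model, scaled to library depth) for P14 testis and spermatocytes and FPKM, the same measure per fragment, for P18 testis, and they were rescaled between libraries. Levels set side by side between sets assume that the 2 measures are alike, which was not tested. Whole reads could be read back from 93.4% to 93.5% of the low values at P14 and from 98.99% to 99.17% at P18 (within 0.02 of a read), which gave depths of 17.96M to 21.12M reads for P14 testis, 12.8M to 16.9M for P18 testis and 9.26M to 18.3M for spermatocytes. Zfp541 averaged 4.51 ± 1.05 RPKM in KO and 9.63 ± 1.07 RPKM in Het testis at P14, 9.10 ± 0.929 FPKM in KO and 22.5 ± 4.18 FPKM in Het testis at P18, and 12.5 ± 0.959 RPKM in KO and 43.5 ± 13.4 RPKM in Het spermatocytes (SD, n = 3 each), with every KO library below every Het library of its set. Zfp541 passed the test at P18 (adjusted p = 0.00534 in testis and 0.00149 in spermatocytes, limma) and not at P14 (adjusted p = 0.0831). Sox9, a defining Sertoli cell gene, was at 0.959 to 1.96 RPKM in the spermatocyte libraries and at 28.5 to 41.3 FPKM in P18 testis, while Acta2, of peritubular myoid cells, was at 27.9 to 108.8 RPKM in spermatocytes and 56.0 to 83.9 FPKM in P18 testis. Sycp3, of the synaptonemal complex, was at 358.1 to 422.4 RPKM in spermatocytes and at 204.7 to 282.1 FPKM in P18 testis. The summed level of 8 genes of late pachytene and later cells was 5.37 to 10.4 RPKM in KO and 32.8 to 57.4 RPKM in Het at P14, 60.8 to 63.8 FPKM in KO and 356.6 to 927.6 FPKM in Het testis at P18, and 26.4 to 47.7 RPKM in KO and 883.5 to 2046 RPKM in Het spermatocytes. Spermatocyte Het replicate 3 stood apart from the other Het replicates, with a chi-square per degree of freedom of 42.2 and 46.0 against them, and had the highest of these sums.

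**Figure D1:**
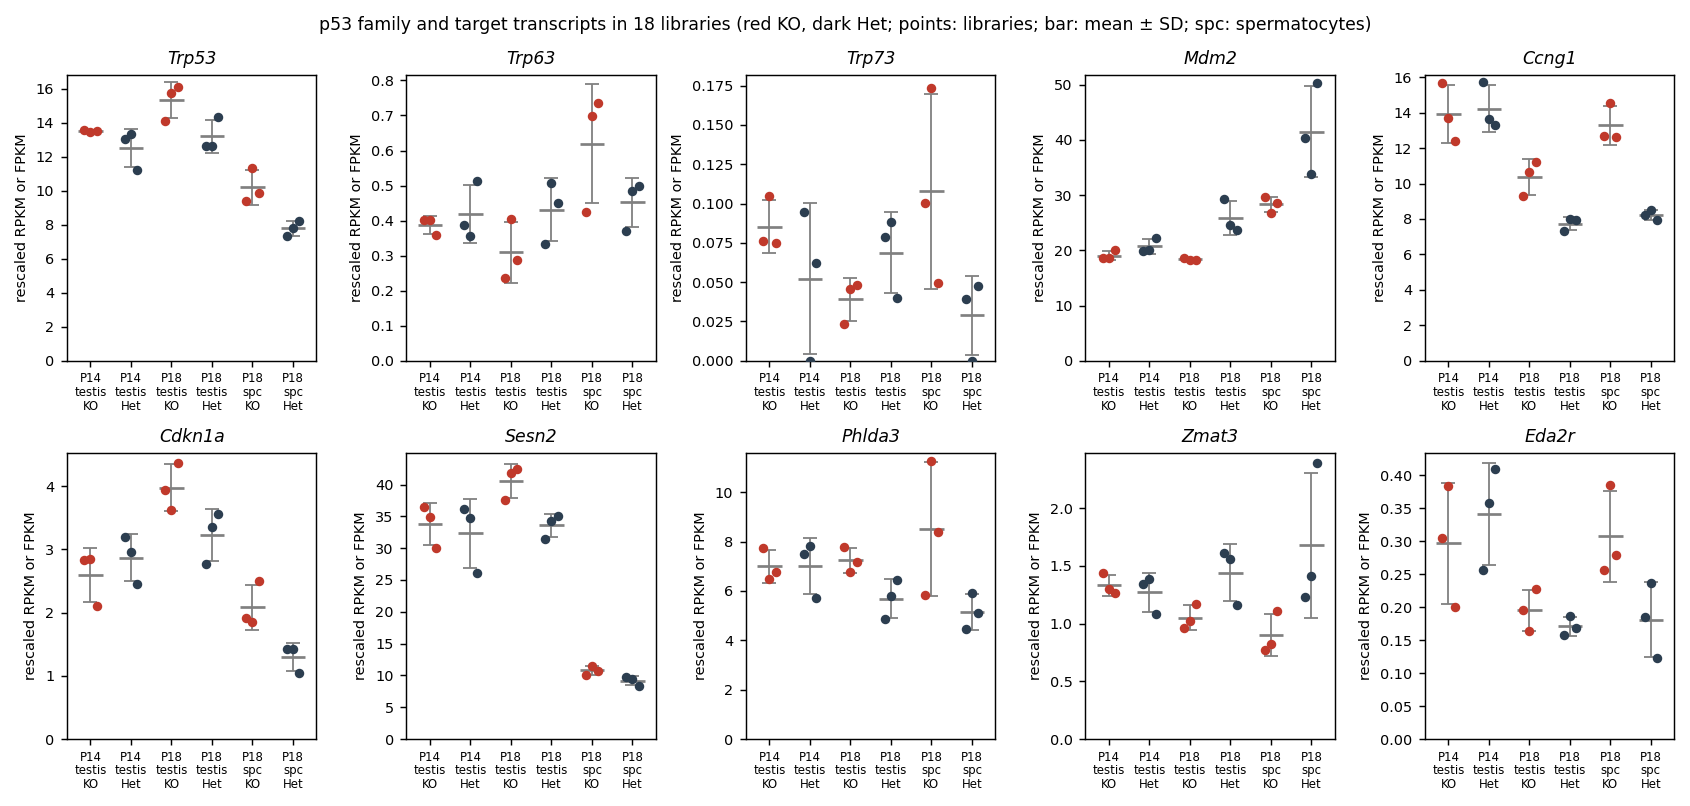
Level of each of the 10 genes (vertical axes, rescaled RPKM or FPKM) in the 18 libraries, by group (horizontal axes). Points are libraries, grey lines the mean and bars the SD of 3. Sesn2 sits near 10 in spermatocytes and above 26 in every testis library, and Mdm2 is highest in Het spermatocytes.

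At P14 the question was whether the family or its targets differed between KO and Het testis, and none of the members tested passed the threshold. Of the 10 genes, 7 passed the filter of at least 1 RPKM in at least 3 libraries. With limma on log2(value + 0.5), the scale of all differences below, 0 of the 7 passed an adjusted p of 0.05 (Benjamini-Hochberg over all genes), 0 had an unadjusted p under 0.05, and voom on the recovered reads called 0 of 5. The background was 0.198% of 18143 genes, 0.011% higher and 0.187% lower. Trp53, the p53 gene itself, was at 13.6, 13.4 and 13.5 RPKM in KO testes and at 13.02, 13.3 and 11.2 RPKM in Het testes. The groups did not overlap, but the difference was small, at 0.11 ± 0.07 (SE, adjusted p = 0.717). With 3 libraries against 3 the smallest exact permutation p is 0.1, so a lack of overlap alone, here and below, is only descriptive. The share of all genes without overlap was not counted. Mdm2 was at 18.6, 18.6 and 19.97 RPKM in KO testes and at 19.93, 20.04 and 22.3 RPKM in Het testes. These ranges overlapped, with a difference of -0.12 (95% interval -0.27 to 0.03, adjusted p = 0.634). The other 5 differences lay between -0.13 for Cdkn1a and 0.07 for Sesn2.

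At P18, whole testis of KO mice had less Mdm2 and more Ccng1 and Sesn2 than whole testis of Het mice. Of 7 members tested 3 passed, or 42.9%, against 23.6% of 18153 genes. In the higher direction 2 passed, where 6.05% of genes did, and in the lower direction 1, where 17.6% did. Mdm2, the ubiquitin ligase that marks p53 for degradation, was at 18.6, 18.3 and 18.3 FPKM in KO testes and at 29.3, 24.6 and 23.7 FPKM in Het testes. Every KO library was below every Het library, and the KO libraries lay close together. Mdm2 was lower in KO, at 0.71 times the Het mean (difference -0.47 ± 0.09, adjusted p = 0.0150). Ccng1, which encodes cyclin G1, a partner of protein phosphatase 2A that acts on MDM2, was at 9.27, 10.6 and 11.2 FPKM in KO testes and at 7.30, 7.99 and 7.92 FPKM in Het testes. The groups did not overlap, and Ccng1 was higher in KO by 1.34-fold (difference 0.40 ± 0.09, adjusted p = 0.0236). Sesn2, the stress-induced sestrin that restrains mTORC1, was at 37.5, 41.8 and 42.4 FPKM in KO testes and at 31.4, 34.25 and 35.0 FPKM in Het testes. Again no KO library lay within the Het range, and Sesn2 was higher in KO by 1.21-fold (difference 0.27 ± 0.07, adjusted p = 0.0427).

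Trp53 was at 14.1, 15.7 and 16.1 FPKM in KO testes at P18 and at 12.7, 12.6 and 14.3 FPKM in Het testes. The lowest KO library lay just below the highest Het library, and the difference of 0.21 (95% interval 0.01 to 0.40) had an adjusted p of 0.105. It passed in 1 of 13 alternatives (other settings, or 1 library left out), as deposited without rescaling (adjusted p = 0.0468). The highest adjusted p among them was 0.268. Cdkn1a, which encodes the cyclin-dependent kinase inhibitor p21, was at 3.93, 3.62 and 4.36 FPKM in KO testes and at 2.76, 3.35 and 3.565 FPKM in Het testes. The groups did not overlap, yet the difference of 0.27 (95% interval -0.02 to 0.56) did not pass (adjusted p = 0.148). Phlda3, which encodes a repressor of Akt, was at 7.78, 6.78 and 7.19 FPKM in KO testes and at 4.86, 5.79 and 6.44 FPKM in Het testes. Its groups did not overlap either, and its difference of 0.33 had an adjusted p of 0.0772. It passed in 1 of 13 alternatives, without Het replicate 3 (adjusted p = 0.0408), and the highest adjusted p among them was 0.2196. Zmat3, which encodes an RNA-binding zinc-finger protein, was at 0.960, 1.02 and 1.17 FPKM in KO testes and at 1.61, 1.56 and 1.16 FPKM in Het testes. One Het library lay within the KO range, and the difference was -0.32 (adjusted p = 0.197).

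The P18 testis calls depended on single libraries. With 1 library left out, 0 members passed when that library was replicate 2 of Het, or replicate 2 or 3 of KO. When it was replicate 1 of either genotype 1 passed, and when it was replicate 3 of Het 4 passed. The adjusted p of Mdm2 was then 0.00798 to 0.0625, that of Ccng1 0.0356 to 0.0901 and that of Sesn2 0.0471 to 0.1405, and the calls over all genes numbered 983 to 4402, against 4290 with every library. No member changed sign in these fits. In whole testis, fewer cells of a type and less RNA per cell cannot be told apart. The summed level of 10 Sertoli cell markers was 1557 to 1600 FPKM in KO and 1187 to 1434 FPKM in Het testes at P18, and that of 7 spermatogonial markers was 178.0 to 200.7 FPKM in KO and 135.8 to 170.9 FPKM in Het testes. That of 6 macrophage markers was 36.4 to 39.8 FPKM in KO and 26.5 to 28.05 FPKM in Het testes, and that of 6 markers of early prophase spermatocytes 394.6 to 463.5 FPKM in KO and 470.8 to 532.7 FPKM in Het testes. Called higher in KO were 3 of 10 Sertoli, 1 of 6 spermatogonial and 3 of 5 macrophage markers tested. The 6 early prophase markers were split, with 1 called higher and 2 lower. No marker of these lists was at 0 in all libraries of a group, and 8 of 8 late pachytene genes were called lower. Of all genes 6.05% were called higher and 17.6% lower. The part of these differences in the member results was not tested.

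In P18 spermatocytes, KO cells had more Ccng1 and Trp53 and less Mdm2 than Het cells. Again 3 of 7 members passed (42.9%), 2 of them higher and 1 lower, against 35.9% of 15936 genes, 12.1% higher and 23.8% lower. Ccng1 was at 12.7, 14.5 and 12.6 RPKM in KO spermatocytes and at 8.24, 8.48 and 7.93 RPKM in Het spermatocytes. The groups were well separated, and Ccng1 was higher in KO by 1.62-fold (difference 0.66 ± 0.10, adjusted p = 0.00307). Trp53 was at 9.41, 11.4 and 9.85 RPKM in KO spermatocytes and at 7.35, 7.79 and 8.25 RPKM in Het spermatocytes. No value of one group lay within the other, and Trp53 was higher in KO by 1.31-fold (difference 0.37 ± 0.11, adjusted p = 0.0379). Mdm2 was at 29.6, 26.8 and 28.5 RPKM in KO spermatocytes and at 40.3, 33.9 and 50.2 RPKM in Het spermatocytes. The Het libraries were all higher and more spread, and Mdm2 was lower in KO, at 0.68 times the Het mean (difference -0.53 ± 0.15, adjusted p = 0.0314).

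The other 4 members tested in spermatocytes did not pass. Cdkn1a was at 1.92, 1.84 and 2.49 RPKM in KO spermatocytes and at 1.43, 1.42 and 1.05 RPKM in Het spermatocytes. Its groups did not overlap, and the difference was 0.52 (95% interval 0.09 to 0.96, adjusted p = 0.0634). It rested on 47 to 129 reads a library, and voom on the recovered reads gave an adjusted p of 0.0345. Cdkn1a passed in 3 of 13 alternatives, and in 0 of the 6 fits with 1 library left out. Phlda3 was at 5.85, 11.3 and 8.40 RPKM in KO spermatocytes and at 4.46, 5.91 and 5.12 RPKM in Het spermatocytes. KO replicate 1 lay within the Het range, and the difference was 0.63 (adjusted p = 0.0725). Without that library it was 0.86 (adjusted p = 0.0226). Phlda3 passed in 4 of 13 alternatives, among them 1 of the 6 fits with 1 library left out. The highest adjusted p of those 6 was 0.193. Zmat3 was at 0.770, 0.825 and 1.11 RPKM in KO spermatocytes and at 1.23, 1.42 and 2.40 RPKM in Het spermatocytes. The groups did not overlap, the highest value was that of Het replicate 3, and the difference of -0.61 (adjusted p = 0.0980) was -0.38 (adjusted p = 0.257) without that library. It passed with voom on the recovered reads (-0.87, adjusted p = 0.0467) and in 1 fit over all 18 libraries (adjusted p = 0.00984), as did Cdkn1a in that last fit (adjusted p = 0.00819). Sesn2 was at 10.1, 11.48 and 10.7 RPKM in KO spermatocytes and at 9.68, 9.38 and 8.36 RPKM in Het spermatocytes. These groups did not overlap, and the difference of 0.23 (95% interval -0.02 to 0.47) did not pass (adjusted p = 0.127).

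Among the spermatocyte calls, that of Ccng1 held with each library left out (adjusted p 0.00503 to 0.0194). The adjusted p of Trp53 was 0.0582 to 0.142 without any one of Het replicates 1 and 2 and KO replicates 1, 2 and 3, and that of Mdm2 was 0.0695 to 0.107 without Het replicate 1 or any one KO replicate. Without Het replicate 3, the library that stood apart, 3 members passed as before: Ccng1 (0.63), Trp53 (0.40) and Mdm2 (-0.38). The 7 spermatogonial markers summed to 367.1 to 442.3 RPKM in KO and 210.7 to 295.4 RPKM in Het spermatocytes. All 7 had differences above 0, at 0.20 to 0.73, and 5 of the 7 were called higher in KO. The 8 late pachytene genes were all called lower in KO. Of all genes 12.1% were called higher and 23.8% lower. The part of these markers in the member results was not tested.

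**Figure D2:**
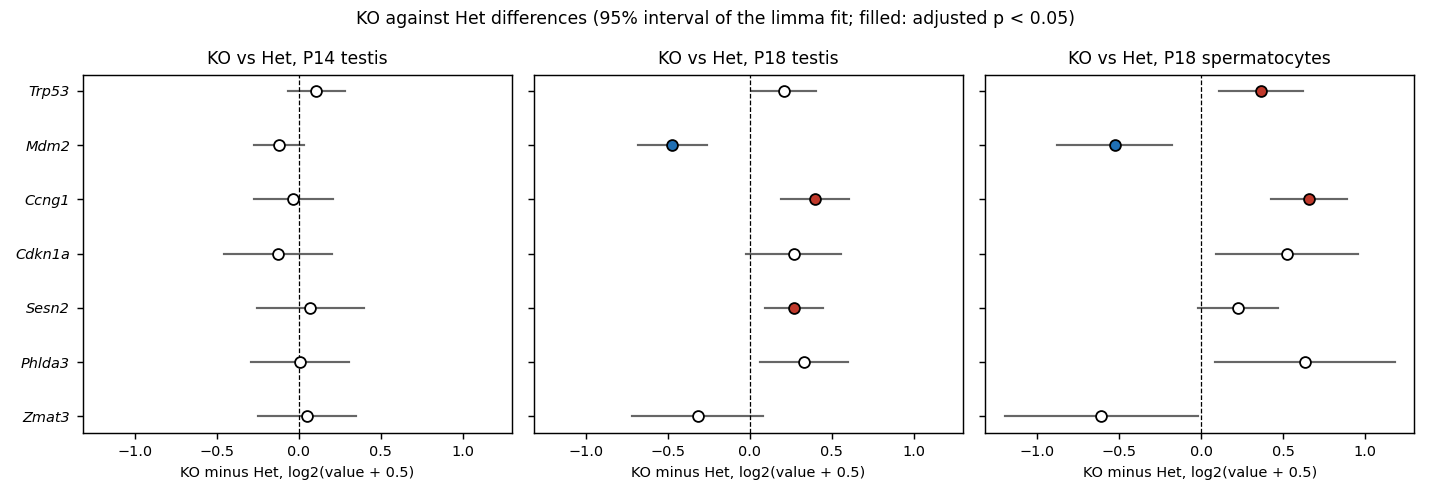
KO minus Het differences of the 7 members tested (horizontal axes, log2(value + 0.5)) at P14, in P18 testis and in P18 spermatocytes. Circles are fitted differences, lines their 95% intervals, and filled circles passed an adjusted p of 0.05. All P14 intervals cross 0, and Mdm2 lies left of 0 and Ccng1 right of 0 in both P18 sets.

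The tests of whether the KO difference itself changed with age or fraction called 0 of 7 members each by limma. For age, taken as the KO difference at P18 minus that at P14 in testis, 6.4% of 18989 genes passed, 0.427% higher and 5.97% lower, 2 members had an unadjusted p under 0.05, and voom called 0 of 5. Those members were Mdm2 (-0.35, 95% interval -0.59 to -0.11, adjusted p = 0.0819) and Ccng1 (0.43, 95% interval 0.12 to 0.74, adjusted p = 0.0938). The P14 values of Mdm2 and Cdkn1a are on another gene model than those of P18, and voom left both genes out. Mdm2 passed in 1 of 18 alternatives, without P18 testis Het replicate 3 (-0.41, adjusted p = 0.0347). Ccng1 passed in 1 of 19, with replicate number added to the limma fit (adjusted p = 0.0425). For fraction, taken as the KO difference in spermatocytes minus that in P18 testis, 0.425% of 19511 genes passed, 0.041% higher and 0.384% lower, 0 members had an unadjusted p under 0.05, and voom called 0 of 7. The differences were 0.30 for Phlda3 (95% interval -0.31 to 0.92), -0.29 for Zmat3 (95% interval -0.91 to 0.34) and 0.26 for Ccng1 (95% interval -0.01 to 0.53), and those of the other 4 were smaller. With all libraries and no replicate term, the member differences were not shown to differ between ages or between testis and spermatocytes.

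The levels by library against the late pachytene sum put these differences beside the stage of the germ cells. Within Het spermatocytes the order of Mdm2 was that of the sum: 33.9 RPKM at the lowest sum, 883.5, then 40.3 at 1021, and 50.2 at 2046. The same held in P18 Het testis, with Mdm2 at 23.7 FPKM where the sum was 356.6, at 24.6 FPKM where it was 569.8 and at 29.3 FPKM where it was 927.6. With 3 libraries a group, such an order is only descriptive. Zfp541 ran in the same order, at 32.2, 39.9 and 58.4 RPKM in Het spermatocytes and 19.1, 21.2 and 27.1 FPKM in Het testis. KO testes of P18, with sums of 60.8 to 63.8 FPKM, had Mdm2 at 18.3 to 18.6 FPKM, and P14 testes of both genotypes, with sums of at most 57.4 RPKM, had it at 18.6 to 22.3 RPKM on another gene model. Mdm2 did not follow the sum in KO spermatocytes, at 29.6, 26.8 and 28.5 RPKM where the sum was 26.4, 28.9 and 47.7. These Mdm2 levels overlapped those of P18 Het testis, 23.7 to 29.3 FPKM, whose sums were far higher. Nor did it follow the sum in P14 Het testis, at 19.93, 20.04 and 22.3 RPKM where the sum was 57.4, 32.8 and 51.9. Ccng1 had its lowest values, 7.30 to 8.48, in the 6 Het libraries of P18, where the sum was highest. The part of germ cell stage in the KO differences was not tested.

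**Figure D3:**
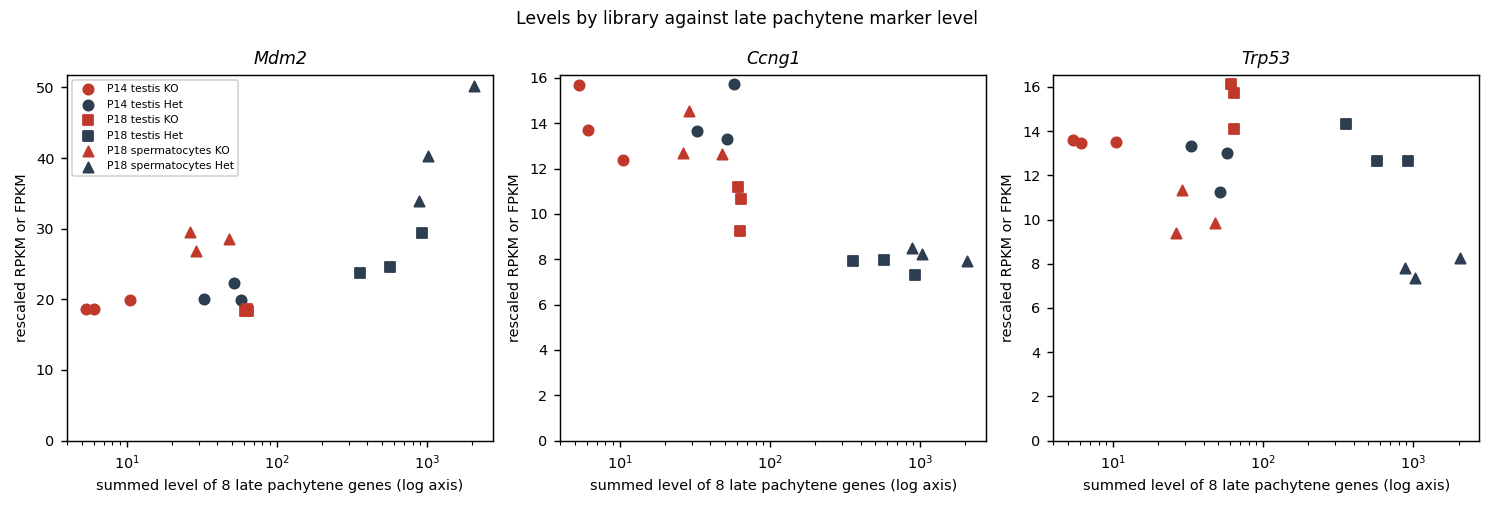
Mdm2, Ccng1 and Trp53 (vertical axes, rescaled RPKM or FPKM) against the summed level of 8 late pachytene genes in the same library (horizontal log axis). Each point is a library, red for KO and dark for Het. The 6 Het libraries of P18 lie to the right, with Mdm2 (on another gene model at P14) at 23.7 to 50.2 and Ccng1 at 7.30 to 8.48.

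Het mice alone were used to compare the fractions, spermatocytes against whole testis at P18. All spermatocyte values are RPKM and all P18 testis values FPKM, so fraction and measure cannot be told apart. The p-values rest on the spread within groups only. Of 7 members 4 passed (57.1%), 1 higher and 3 lower, against 60.5% of 19511 genes, 30.1% higher and 30.4% lower. Sesn2, at the spermatocyte and testis values given above, averaged 9.14 ± 0.694 RPKM in spermatocytes and 33.6 ± 1.88 FPKM in testis (SD, n = 3 each), a difference of -1.82 ± 0.08 (adjusted p = 4.636e-08). Cdkn1a averaged 1.30 ± 0.215 RPKM in spermatocytes and 3.22 ± 0.416 FPKM in testis (difference -1.05, adjusted p = 9.845e-05). Trp53 averaged 7.80 ± 0.447 RPKM in spermatocytes and 13.2 ± 0.972 FPKM in testis (difference -0.72, adjusted p = 5.057e-05). Mdm2 was higher in spermatocytes, at 41.5 ± 8.23 RPKM in spermatocytes and 25.9 ± 3.03 FPKM in testis (difference 0.66, adjusted p = 0.00108). All 4 calls held under each of the 18 alternatives tried, each of which kept this difference of measure. Ccng1 (0.08), Zmat3 (0.14) and Phlda3 (-0.13) did not pass.

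Between ages, P18 against P14 in Het testis, 1 of the 5 members that had the same gene model at both ages and passed the filter was called (20%), against 62.7% of 15965 genes, 26% higher and 36.8% lower. It was Ccng1, which averaged 7.73 ± 0.379 FPKM at P18 and 14.2 ± 1.31 RPKM at P14, or 0.54 times the P14 mean (difference -0.84 ± 0.10, adjusted p = 3.032e-05). Trp53 averaged 13.2 ± 0.972 FPKM at P18 and 12.5 ± 1.12 RPKM at P14 (0.07, adjusted p = 0.423), Sesn2 33.6 ± 1.88 FPKM at P18 and 32.3 ± 5.41 RPKM at P14 (0.07, adjusted p = 0.646), and Zmat3 1.44 ± 0.246 FPKM at P18 and 1.27 ± 0.167 RPKM at P14 (0.13, adjusted p = 0.403). As deposited, without rescaling, these 3 passed as higher at P18 (0.33, 0.33 and 0.32), on a scale on which the median of all genes was 0.18 in place of -0.06. Phlda3 (-0.27, adjusted p = 0.0844) passed in 2 of 18 alternatives. These were the fits without P14 Het replicate 3 (-0.40, adjusted p = 0.0133) and without P18 Het replicate 3 (-0.36, adjusted p = 0.0422). Cdkn1a and Mdm2 were left out of this comparison: their P14 values give whole reads with gene model lengths of 2223 and 5070 bases, or multiples of these, and not with the 3553 and 5083 bases that hold at P18, so their levels at the 2 ages are not on 1 scale. For the other members, age cannot be told apart from the way the files were made. P14 files held 49585 rows of RPKM, and P18 testis files 55401 rows of FPKM.

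Over all 6 groups, Sesn2 had the widest range of group means, 2.09 on the log2 scale. It was highest in P18 KO testis, next came P14 KO, P18 Het and P14 Het testis, whose ranges overlapped, and then KO and Het spermatocytes. Trp53 followed the same order of groups with a range of 0.93. Its 2 spermatocyte groups did not overlap, and the lowest P14 Het testis value, 11.2, lay just under the highest of KO spermatocytes, 11.4. Mdm2 at P18 was highest in Het spermatocytes, next in KO spermatocytes and Het testis, which overlapped, and lowest in KO testis. Ccng1 was highest in the 2 P14 groups and KO spermatocytes, which overlapped, then in P18 KO testis, and lowest in Het spermatocytes and P18 Het testis. Phlda3 was lowest in Het spermatocytes, and the ranges of its neighbouring groups overlapped throughout, as did those of Zmat3, which was highest in Het and lowest in KO spermatocytes. Cdkn1a at P18 was highest in KO testis, next in Het testis, then in KO and last in Het spermatocytes, with no overlap between neighbours. Among 19787 genes, those whose levels followed Sesn2 most closely over the 18 libraries were Arpc4 (Pearson r = 0.996), Smox (0.996) and Gpt2 (0.994). For Cdkn1a, whose range of 1.32 came next, they were Pld3 (0.965), Syt7 (0.964) and Gm45140 (0.951), with its P14 values on another gene model. The points share their libraries and fall into 3 sets, so these values only describe likeness.

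The 2 other family members and Eda2r stayed under the filter in every set. Trp63, known for the stem cells of stratified epithelia and for the surveillance of oocytes, was at 0.236 to 0.736 over the 18 libraries, or 31 to 90 reads each. Its levels were 0.425, 0.697 and 0.736 RPKM in KO spermatocytes and 0.371, 0.485 and 0.499 RPKM in Het spermatocytes, which overlap. Trp73, whose product in mouse testis helps germ cells adhere to Sertoli cells, had 0 to 11 reads a library. The highest level was 0.173 RPKM, in KO spermatocytes replicate 2. It was listed at 0 in P14 Het replicate 2 and spermatocytes Het replicate 2, where 3 reads, the limit a count of 0 allows, would give 0.0345 and 0.0581 RPKM. Eda2r, which encodes a receptor for ectodysplasin A2 of the TNF receptor superfamily, was at 0.256, 0.385 and 0.279 RPKM in KO spermatocytes and at 0.184, 0.237 and 0.122 RPKM in Het spermatocytes. These values of 11 to 26 reads did not overlap. With no filter, none of the 3 genes passed in a KO comparison (adjusted p 0.326 to 0.936). Eda2r was lower at P18 than at P14 in Het testis in that fit, with 0.158 to 0.186 FPKM at P18 and 0.256 to 0.410 RPKM at P14 (-0.32, adjusted p = 0.0477).

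Some reads of the members could come from elsewhere. Of the 50-base words of Trp53 transcripts 3.95% also occur in other annotated transcripts, the pseudogene Trp53-ps among them, and 8.49% of those of Cdkn1a do. In Cdkn1a 7.68% of the exon bases overlap another gene, AC167363.2, and in Trp73 5.06% overlap Trp73os, and the strand setting of the counting is not given in the sources used here. The share of 50-base words found elsewhere was 4.12% for Trp73, 1.32% for Mdm2 and 0.88% for Zmat3. Ccng1, Sesn2, Phlda3, Eda2r and Trp63 shared no such word.

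The wider pathway was read from lists of p53 regulators and p53 targets that exclude the 10 members. The lists were chosen with earlier results of these data known, so their counts and medians are only descriptive. At P14, 0 genes of the 4 lists passed: 0 of 19 regulators, 0 of 14 arrest and growth targets, 0 of 11 apoptosis targets and 0 of 11 repair and metabolism targets. Only 0.198% of all genes passed there, so these counts do not set the lists apart from other genes. In P18 testis 6.05% of all genes were called higher in KO and 17.6% lower. Of 19 regulators 3 were called higher and 4 lower, with a list median of -0.07 beside 0.02 for all genes. Higher were Cdkn2a (0.28), which encodes p19Arf, an MDM2 inhibitor, and p16, and the damage kinases Chek1 (0.37) and Atm (0.28). Lower were Ppp1r13l, which encodes the p53 inhibitor iASPP, the acetyltransferase gene Kat5 (-0.50), the ligase gene Topors (-0.43) and the kinase gene Atr (-0.56). Ppp1r13l averaged 3.87 ± 0.387 FPKM in KO and 12.1 ± 2.27 FPKM in Het testis (difference -1.52, adjusted p = 0.00444), further apart than any member. It was also the only gene of these lists whose KO difference was called as changed between P14 and P18 (-1.14, adjusted p = 0.00505).

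Of the p53 targets in P18 testis, 2 of 13 arrest and growth genes were called higher in KO, Ddit4 (0.42) and Ptprv (0.32). Called lower was 1, Ckap2 (-0.24), and the list median was 0.11. Of all genes tested 6.05% were called higher and 17.6% lower, with a median of 0.02. Among 11 apoptosis genes 2 were called higher, the mitochondrial pore gene Bax (0.28) and Ei24 (0.23), and 0 called lower. The differences of these 11 ran from -0.32 to 0.29, with a median of 0.17. Among 11 repair and metabolism genes 2 were called higher, Fdxr (0.42) and Ddb2 (0.25), and 0 called lower. Their differences ran from -0.16 to 0.42, with a median of 0.20.

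In spermatocytes 12.1% of all genes were called higher in KO and 23.8% lower. Of 19 regulators 6 were called higher and 5 lower, with a list median of 0.08 beside -0.02 for all genes. Those with the smallest p were Cdkn2a (0.63), Chek1 (0.57), Crebbp (0.43) and Atm (0.44) on the higher side. On the lower side they were Ppp1r13l (-1.65), Mdm4 (-0.70), Kat5 (-0.81) and Atr (-0.57). Mdm4 encodes the MDM2 relative that blocks the p53 activation domain, and it averaged 11.4 ± 0.710 RPKM in KO and 18.9 ± 2.38 RPKM in Het spermatocytes (adjusted p = 0.00482). In P18 testis the Mdm4 difference was -0.15 (adjusted p = 0.177).

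Of 12 apoptosis targets 6 were called higher in KO spermatocytes and 0 called lower, beside 12.1% and 23.8% of all genes. The 12 differences ran from -0.03 to 0.64, with a median of 0.36. The 4 with the smallest p were Ei24 (0.63), Apaf1 (0.58), the caspase 9 activator, Bax (0.64) and the death receptor gene Tnfrsf10b (0.57). Tnfrsf10b and the remaining calls, Aen (0.39) and Bid (0.35), passed narrowly, with adjusted p of 0.0413, 0.0487 and 0.0499 (limma). The lists were not refitted with 1 library left out, so whether these calls hold in such fits was not tested. Bax averaged 43.2 ± 6.56 RPKM in KO and 27.3 ± 1.95 RPKM in Het spermatocytes (adjusted p = 0.00893). Bbc3, which encodes PUMA, had a difference of 0.35 (adjusted p = 0.157) and Pmaip1, which encodes NOXA, 0.12 (adjusted p = 0.633). Aen, Bid, Bbc3 and Pmaip1 were named after their values were seen. Of 13 arrest and growth targets 2 were called higher, Gtse1 (0.36) and Gadd45a (0.40), and 0 called lower. The 13 differences ran from -0.27 to 0.40, with a median of 0.08. Gtse1 encodes a microtubule protein that restrains p53. Of 11 repair and metabolism targets Xpc (0.48), a gene of nucleotide excision repair, was called higher and the translesion polymerase gene Polk (-0.68) called lower.

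**Figure D4:**
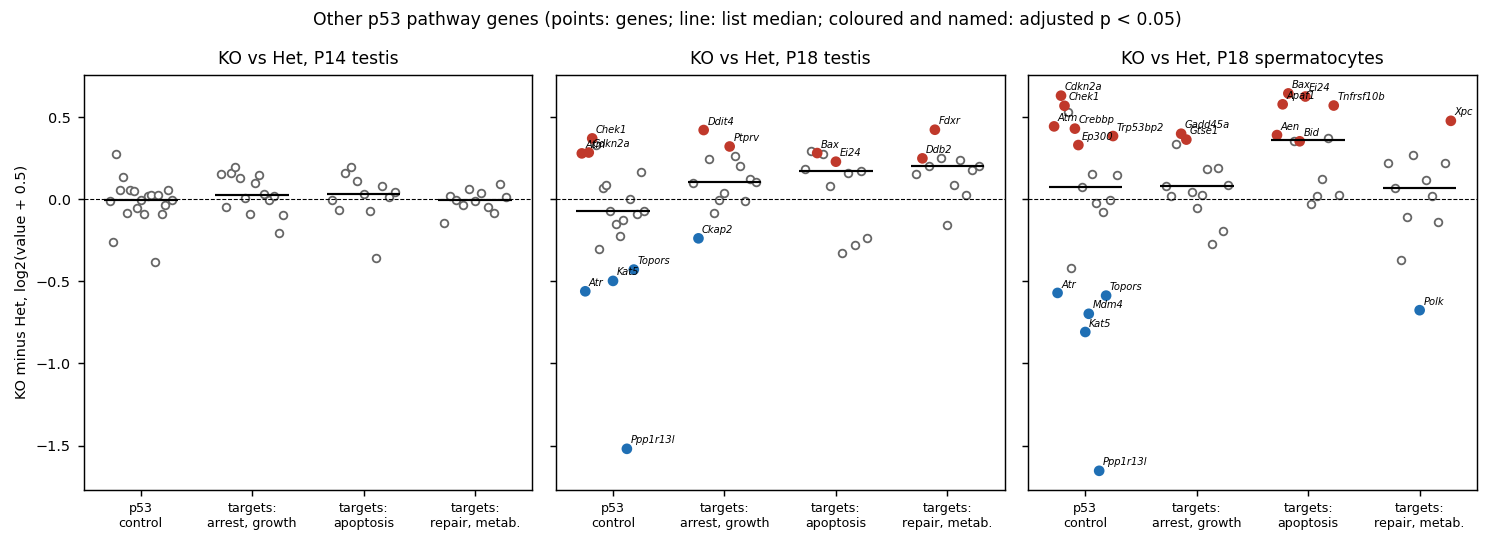
KO minus Het differences (vertical axis, log2(value + 0.5)) of the genes tested in 4 lists of p53 regulators and targets, in P14 testis, P18 testis and P18 spermatocytes. Each point is a gene, black lines are list medians, and coloured, named points passed an adjusted p of 0.05. Ppp1r13l lies lowest in both P18 panels, at -1.52 and -1.65.

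The rescaling moved the share of calls that were higher in KO, though it changed the sign of no member in a KO comparison at P18. As deposited, the median of all genes was 0.12 in P18 testis and 0.17 in spermatocytes, in place of 0.02 and -0.02, and 46.4% of the calls in P18 testis and 54.3% of those in spermatocytes were higher, in place of 25.6% and 33.8%. The same share was 20.3% in place of 6.67% for the age test (median 0.11 in place of 0.01), 20% in place of 9.64% for the fraction test, 64.5% in place of 41.4% for P18 against P14, and 34.7% in place of 49.8% for spermatocytes against testis, where the median of all genes was -0.19 in place of 0.02. Ccng1 in spermatocytes was 0.85 as deposited and 0.66 rescaled, and Mdm2 there was -0.32 as deposited and -0.53 rescaled.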

How the data were processed

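Poly(A) RNA of 18 libraries was prepared with NEBNext kits, per the labels' protocols. The submitters' processing notes list the build GRCm38, edgeR 3.28.1, featureCounts, CASAVA 1.9 and STAR 2.6.1a, as names without roles. The authors deposited RPKM for P14 testis and spermatocytes and FPKM for P18 testis, 1 value a gene and library, per the file headers. Symbols naming more than 1 gene (139 at P14, 118 at P18) were left out. Reads were recovered as value times merged exon length (GENCODE M21), within 0.02 of a read for values under 30 reads.

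Rescaling used edgeR-style TMM factors, computed without the package, trimming 30% of M and 5% of A values within each set, and then 1 factor between sets. limma 3.58.1 in R 4.3.3 was fitted to log2(value + 0.5), with trend and robust moderation. Genes at 1 or more in 3 or more libraries of the comparison were used. The threshold was 0.05 after Benjamini-Hochberg adjustment over all genes. The fit was also run on simulated data, whose changes were larger than any KO difference of a member, so it does not bear on differences of their size. KO comparisons used the 6 libraries of a set, and the others used 12. The 10 members, their lists and the rule for named genes (all members, and in each list up to 4 genes called in each direction with the smallest p) were chosen with earlier results of these data known. Of 20 regulators 19 had a row.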

Additional observations from a re-analysis of the deposited data

How the results depend on the processing

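Over the alternatives, 690 values of single members kept their direction and their side of the threshold, 27 no longer passed, 19 newly passed and 15 changed sign, none of them a called value. With no filter on low values, 1 member passed in P18 testis (Mdm2), 1 in spermatocytes (Ccng1) and 2 for P18 against P14 (Ccng1 and Eda2r), against 3, 3 and 1; more genes are then tested. In spermatocytes 6 passed as deposited (Cdkn1a, Phlda3 and Sesn2 added), 5 with voom on recovered reads and 6 in 1 fit over all 18 libraries, and for P18 against P14 4 passed as deposited; the cause was not tested. With 1 library left out, 0 to 4 members passed in P18 testis, 1 to 3 in spermatocytes, 0 to 1 for the age test and 1 to 2 for P18 against P14. As deposited, the fraction test of Mdm2 and Sesn2 gave 0.0406 and 0.0390, and spermatocytes against testis gave -0.13 for Ccng1 and -0.0357 for Zmat3.

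With 1 library left out, signs changed at P14 for Ccng1 (-0.119 to 0.0443), Sesn2 (-0.0735 to 0.156), Phlda3 (-0.122 to 0.0871) and Zmat3 (-0.0273 to 0.101), in the fraction test for Mdm2 (-0.186 to 0.0945) and Sesn2 (-0.103 to 0.00291), for P18 against P14 for Sesn2 (-0.0785 to 0.151), and for spermatocytes against testis for Zmat3 (-0.0869 to 0.286).

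Genes called over all numbered 36 at P14, but 18 with a pseudocount of 0.1, 10 with no filter, 207 with voom, 56 in 1 fit over all 18, 3 with the replicate block and 0 to 138 with 1 library left out. They numbered 4290 in P18 testis, but 2838 with no filter, 2724 with the block and 983 to 4402 with 1 library left out, and 5727 in spermatocytes, but 3276 to 5161 with 1 left out. For the age test they numbered 1215, but 169 with voom, 620 in 1 fit over all 18, 598 with the block and 127 to 2148. For the fraction test they numbered 83, but 290 as deposited, 183 and 25 with pseudocounts of 0.1 and 1, 35 with no filter, 162 with voom, 571 in 1 fit over all 18, 53 with the block and 10 to 266.

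Whether the replicate numbers pair the samples was not settled. Same-numbered KO and Het libraries deviated together with correlations of 0.0657 to 0.0941 at P14, -0.0288 to 0.0233 in P18 testis and 0.0568 to 0.233 in spermatocytes. Every KO library correlated best with the Het library of its own number at P14 and in spermatocytes, but not in P18 testis. With the replicate block, 0 members passed at P14, 3 in P18 testis, 4 in spermatocytes (Phlda3 added, adjusted p = 0.0226), 1 in the age test (Ccng1, adjusted p = 0.0425) and 0 in the fraction test. The block was not fitted for P18 against P14 or for spermatocytes against testis.

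Trp63, Trp73 and Eda2r rested on 0 to 90 reads a library, and the size of KO difference that can be detected at this depth was not tested.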

Other observations

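The p53 lists also differed between the 2 fractions of Het mice. Of 19 p53 regulators 15 were called higher and 1 lower in spermatocytes than in P18 testis, with a median difference of 0.63. Of all genes 30.1% were called higher and 30.4% lower, with a median of 0.02. Of 12 apoptosis targets 5 were called higher and 0 called lower, with differences of -0.36 to 1.05 and a median of 0.27. Of 15 arrest and growth targets 7 were called higher and 5 lower. Of 12 repair and metabolism targets 2 were called higher and 6 lower. Between ages in Het testis, 8 of 16 regulators were called lower at P18 than at P14 and 1 was called higher, Ppp1r13l. It averaged 12.1 ± 2.27 FPKM at P18 and 4.32 ± 0.245 RPKM at P14 (SD, n = 3 each). Of 11 arrest and growth targets 6 were called lower at P18 and 0 called higher, with differences of -0.60 to 0.12. Of all genes 36.8% were called lower and 26.0% higher.

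The summed level of 7 immediate-early genes was 132.2 to 349.4 RPKM in the 6 spermatocyte libraries and 30.4 to 37.3 FPKM in the 6 P18 testis libraries. Between KO and Het spermatocytes 0 of the 7 were called, where 35.9% of all genes were. The sums spread widely, at 148.2 to 349.4 RPKM in KO and 132.2 to 258.9 RPKM in Het, so this count does not show that these genes were unchanged.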
